A study of Mus musculus with 16 samples.

Results

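The genes described here are 7 genes of the B cell receptor and of B lineage identity in mouse tumors, Cd79a, Cd79b, Ms4a1, Cd22, Pax5, Blk and Fcrla. They were chosen by name, with earlier results of these data known, and all 7 were found among the 17428 genes shared by the tables of liver and fat pad tumors. RNA was measured by poly(A) RNA sequencing in 16 libraries. The tumors grew from 4T1, 1 cell line of mouse breast carcinoma that is often studied in place of triple-negative disease, in female wild-type BALB/c mice aged 6 weeks. The study asked how chemotherapy acts on breast cancer growing in the liver and in the mammary fat pad. The group post_Liver holds 5 libraries of tumors in the liver of mice given paclitaxel, a drug that stabilises microtubules, by intraperitoneal injection at 10 mg/kg, 5 times a week for 2 weeks. The group pre_Liver holds 5 libraries of liver tumors without paclitaxel. The group post_SC holds 3 libraries of fat pad tumors from mice given the same paclitaxel schedule, and pre_SC holds 3 libraries of fat pad tumors without it. Liver tumors were started by injecting 200000 cells under the liver capsule, so they did not arise by spread from another tumor. Fat pad tumors were started from 400000 cells, so site and the number of implanted cells cannot be told apart. Control mice received PBS, and the labels do not say whether the untreated tumors came from those controls or were taken before dosing, so treatment and tumor age cannot be told apart.

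B cells recognise antigen with a membrane immunoglobulin that is held in a complex with the signalling chains CD79A and CD79B. After antigen binding, kinases of the SRC family, BLK among them, phosphorylate the tails of both chains, which recruits the kinase SYK. CD22 binds sialic acid and damps this signal by recruiting the phosphatase encoded by Ptpn6. The transcription factor PAX5 commits cells to the B lineage and is switched off when they become antibody-secreting plasma cells. In the liver, B cells are a small part of the resident lymphocytes.

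Each tumor was digested to a suspension that was frozen without sorting, so host cells were included in the RNA. In such bulk samples fewer cells of a type and less RNA per cell cannot be told apart. The labels do not tie the libraries to separate mice, and p-values therefore measure the spread between these libraries. The deposited values were FPKM and TPM, both adjusted for transcript length, and levels are given here as TPM over the shared genes. The number of reads behind each value is unknown. Hepatocyte RNA was part of the liver libraries, with a summed level of 12 hepatocyte genes of 4316 to 104625 TPM in post_Liver and 39204 to 163239 TPM in pre_Liver, against 112 to 150.0 TPM in post_SC and 79.0 to 175 TPM in pre_SC. The 10 carcinoma epithelium genes summed to 1183 to 4257 TPM in post_Liver and 595 to 3444 TPM in pre_Liver, against 4991 to 5965 TPM in post_SC and 5692 to 5836 TPM in pre_SC. The libraries post_Liver 2 and 3 were the closest pair of their group, with 0.82% of 13654 genes differing by more than 2-fold.

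In untreated mice the B cell genes were higher in liver tumors than in fat pad tumors. All 7 had every pre_Liver library above every pre_SC library, beside 16.6% of all genes tested, and 5 of 7 were called higher, beside 14.9%. After paclitaxel the liver libraries split widely, with the highest levels of every member in post_Liver 4 and 5 and lower levels in post_Liver 1, 2 and 3, and no member was called between the sites, beside 9.41% of genes. No member passed the test between treated and untreated tumors in the liver (3.18% of genes called) or in the fat pad (7.05%), where only Cd22 was high enough to be tested. The 4 comparisons share groups of libraries with each other, so their results are not independent.

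Cd79a encodes the CD79A chain of the receptor and was the most abundant member in 9 of 10 liver libraries. It stood at 2.72, 2.90, 4.09, 77.6 and 42.5 TPM in post_Liver 1 to 5, and at 40.2, 9.98, 19.4, 5.76 and 8.38 TPM in pre_Liver 1 to 5. It stood at 0 (listed at 0), 0.303 and 0.422 TPM in post_SC 1 to 3, and at 1.35, 1.54 and 0.360 TPM in pre_SC 1 to 3. Every liver library was therefore above every fat pad library, and the range within post_Liver took in the whole range of pre_Liver. In group means this was 26.0 ± 33.5 TPM in post_Liver and 16.7 ± 14.1 TPM in pre_Liver (SD, n = 5 each), and 1.08 ± 0.633 TPM in pre_SC (SD, n = 3).

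Cd79b encodes the partner chain. It stood at 4.94, 2.82, 2.68, 31.2 and 21.0 TPM in post_Liver 1 to 5, and at 25.1, 8.09, 10.1, 4.67 and 7.45 TPM in pre_Liver 1 to 5. In the fat pad it stood at 0.977, 0.909 and 0.249 TPM in post_SC 1 to 3, and at 0.943, 1.13 and 0.499 TPM in pre_SC 1 to 3. As for Cd79a, the liver and fat pad libraries did not overlap. The lowest liver libraries of Cd79b were post_Liver 2 and 3. The ratio of Cd79a to Cd79b was 0.552 to 2.49 in post_Liver and 1.12 to 1.91 in pre_Liver, and 0 to 1.69 in post_SC and 0.720 to 1.44 in pre_SC. The ranges of this ratio overlapped between the groups.

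Ms4a1 encodes CD20, a membrane protein of mature B cells and the target of antibodies that deplete them. It stood at 0.784, 0.128, 0.0917, 6.94 and 6.50 TPM in post_Liver 1 to 5, and at 13.7, 2.61, 5.57, 2.04 and 3.11 TPM in pre_Liver 1 to 5. It stood at 0.0376, 0.0568 and 0 (listed at 0) TPM in post_SC 1 to 3, and at 0.103, 0.136 and 0.0400 TPM in pre_SC 1 to 3. The untreated sites did not overlap, whereas post_Liver 2 and 3 lay within the range of pre_SC. Ms4a1 had the lowest level of the 7 members in 5 of 6 fat pad libraries and in 2 of 10 liver libraries.

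Cd22 encodes the inhibitory receptor CD22. It stood at 6.21, 2.04, 2.33, 11.9 and 22.3 TPM in post_Liver 1 to 5, and at 12.2, 6.01, 6.01, 3.78 and 4.61 TPM in pre_Liver 1 to 5. In the fat pad it stood at 3.70, 3.88 and 2.09 TPM in post_SC 1 to 3, and at 1.68, 3.38 and 3.22 TPM in pre_SC 1 to 3. The untreated sites did not overlap, and the treated sites did, since post_Liver 2 was below all 3 post_SC libraries. Cd22 was the most abundant member in 5 of 6 fat pad libraries. Its share of the summed level of the 7 members was 8.24 to 36.9% in post_Liver and 11.4 to 19.1% in pre_Liver, against 59.1 to 70.9% in post_SC and 25.2 to 58.8% in pre_SC. Within either treatment this share did not overlap between the sites.

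Pax5 encodes the B lineage transcription factor. It stood at 0.196, 0.238, 1.10, 1.29 and 3.0 TPM in post_Liver 1 to 5, and at 5.54, 1.32, 2.38, 0.495 and 0.796 TPM in pre_Liver 1 to 5. It stood at 0 (listed at 0), 0.0757 and 0.0767 TPM in post_SC 1 to 3, and at 0.328, 0.155 and 0.140 TPM in pre_SC 1 to 3. The sites did not overlap in untreated or in treated mice, although the lowest post_Liver libraries lay within the range of pre_SC. Blk encodes a SRC family kinase of B cells, and stood at 0.196, 0.403, 0.275, 1.96 and 1.96 TPM in post_Liver 1 to 5, and at 3.66, 0.973, 1.81, 0.633 and 1.63 TPM in pre_Liver 1 to 5. In the fat pad it stood at 0.113, 0.208 and 0.115 TPM in post_SC 1 to 3, and at 0.123, 0.622 and 0.240 TPM in pre_SC 1 to 3. Blk did not overlap between the untreated sites, by a margin of 0.633 TPM in pre_Liver 4 against 0.622 TPM in pre_SC 2.

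Fcrla encodes an Fc receptor-like protein that stays inside the B cell. It stood at 1.76, 1.36, 0.862, 13.6 and 6.97 TPM in post_Liver 1 to 5, and at 6.65, 3.32, 3.35, 2.41 and 2.75 TPM in pre_Liver 1 to 5. It stood at 0.395, 1.14 and 0.345 TPM in post_SC 1 to 3, and at 2.15, 0.991 and 0.979 TPM in pre_SC 1 to 3. The untreated sites did not overlap, and post_Liver 3 lay below post_SC 2. In the untreated fat pad Cd22 and Fcrla were the members with the highest lowest value, at 1.68 and 0.979 TPM.

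**Figure D1:**
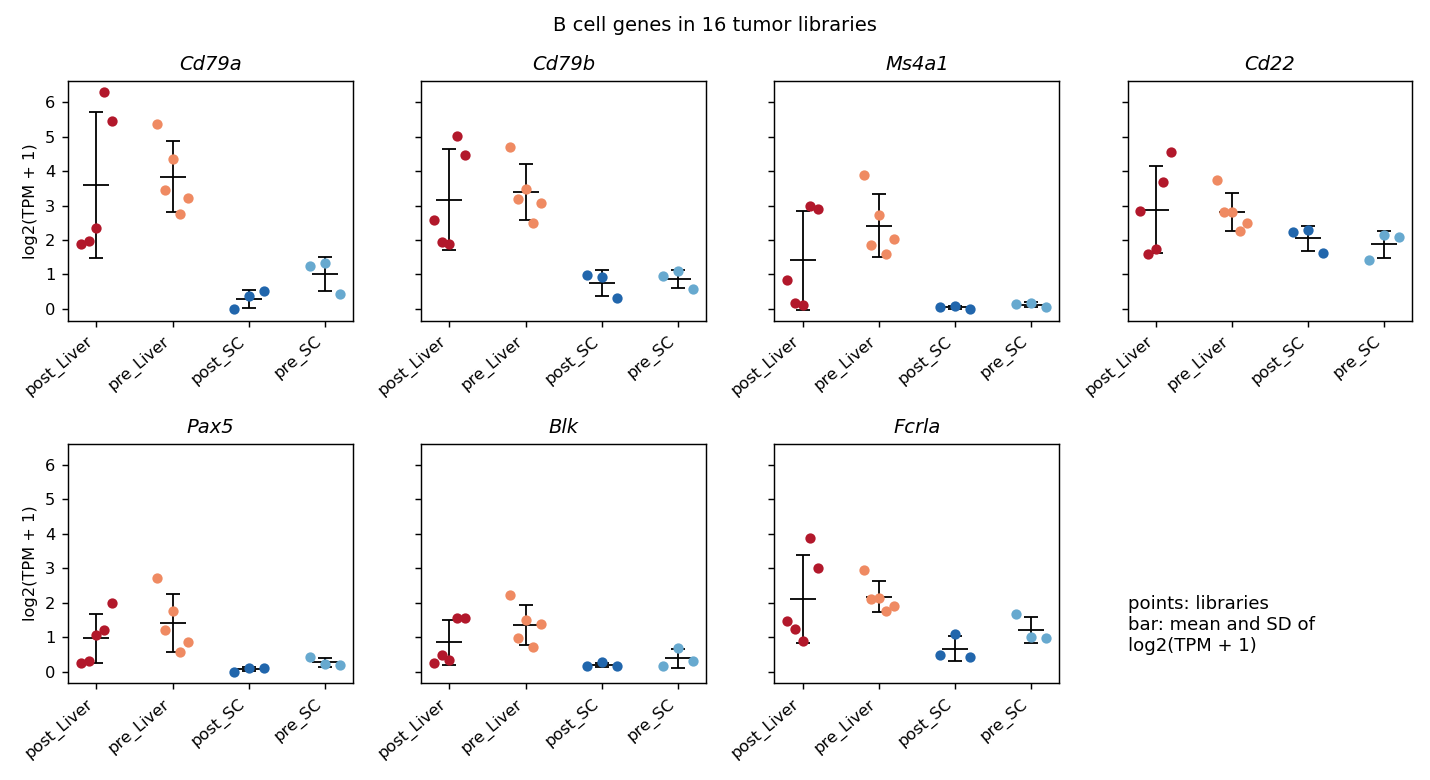
Levels of the 7 B cell genes as log2(TPM + 1) on the vertical axis, by group on the horizontal axis, with 1 point for each library and bars for the mean and SD (n = 5 for each liver group, n = 3 for each fat pad group). The libraries post_Liver 4 and 5 hold the highest post_Liver points in all 7 panels, and every pre_Liver point is above every pre_SC point in all 7 panels.

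The summed level of the 7 members was 9.88 to 145 TPM in post_Liver and 19.8 to 107 TPM in pre_Liver, against 3.30 to 6.57 TPM in post_SC and 5.47 to 7.95 TPM in pre_SC. Set against Ptprc, the pan-leukocyte gene of CD45, the sum was 0.211 to 3.08 in post_Liver and 0.695 to 2.05 in pre_Liver, against 0.220 to 0.283 in post_SC and 0.197 to 0.385 in pre_SC. The ratio to Ptprc was thus higher in every pre_Liver library than in every pre_SC library, and it overlapped between post_Liver and post_SC. Set against Cd3e, a chain of the T cell receptor complex, the sum was 1.56 to 10.4 in post_Liver and 1.48 to 3.51 in pre_Liver, against 0.446 to 0.822 in post_SC and 0.898 to 1.00 in pre_SC. This ratio did not overlap between the sites, with or without paclitaxel.

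**Figure D2:**
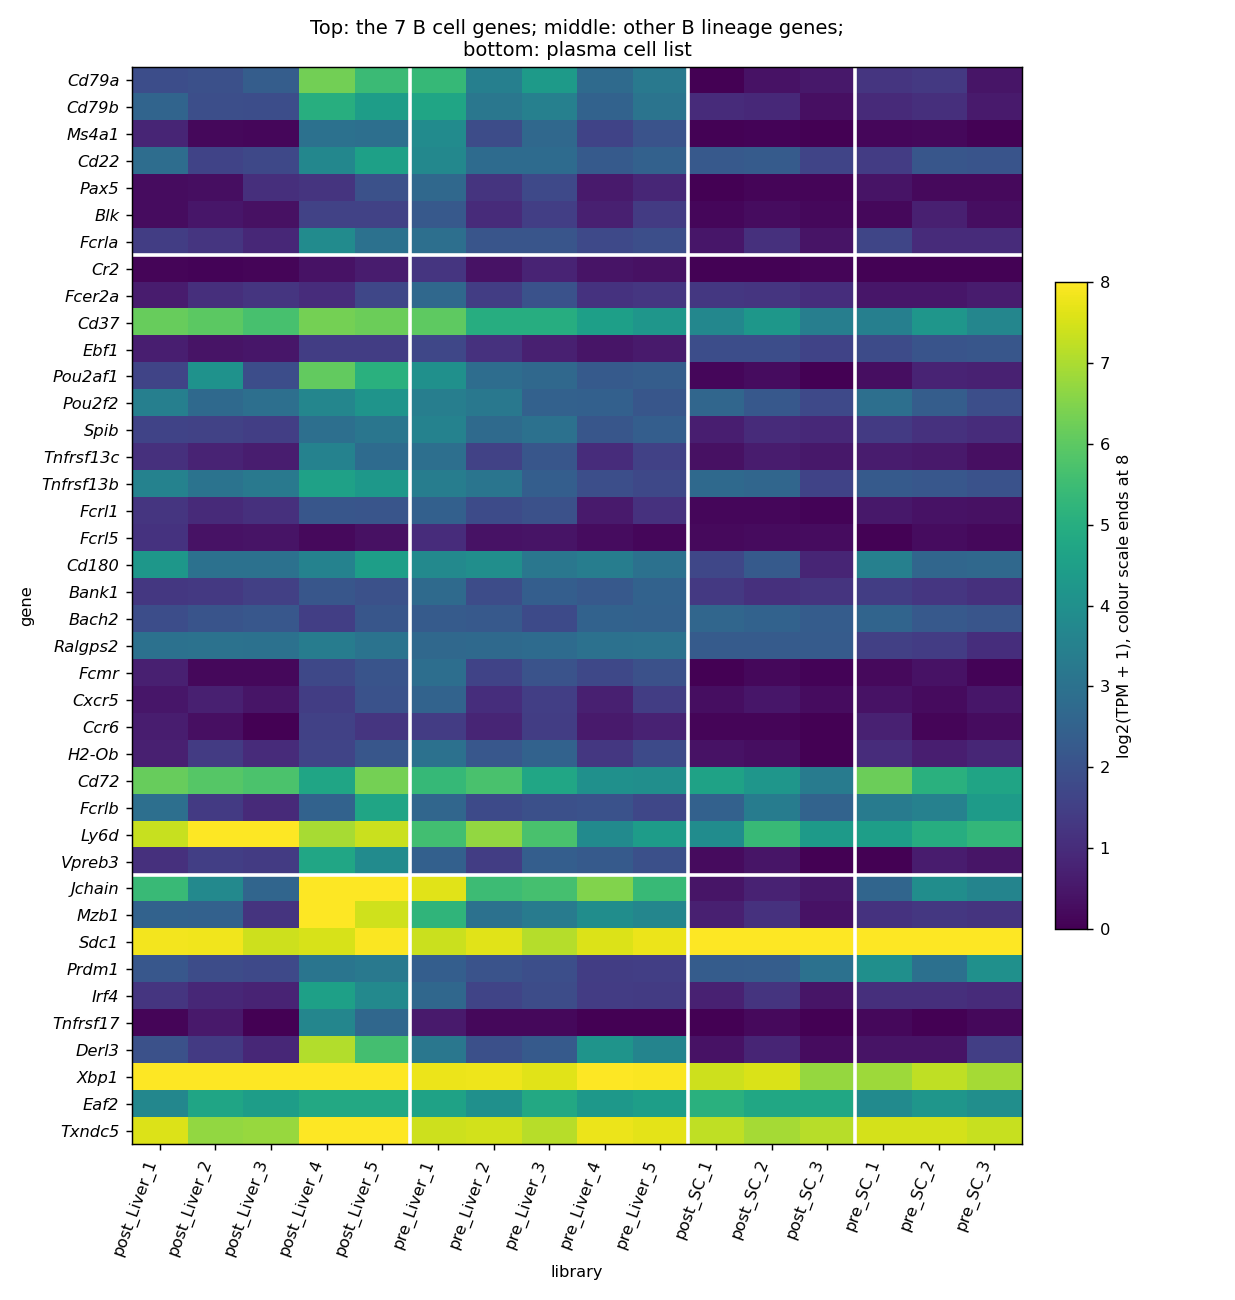
Levels of the 7 members (top), other B lineage genes (middle) and the plasma cell list (bottom) in each of the 16 libraries, with libraries in columns, genes in rows and colour for log2(TPM + 1) on a scale that ends at 8. The columns post_Liver 4, post_Liver 5 and pre_Liver 1 hold the highest values of Cd79a, at 77.6, 42.5 and 40.2 TPM.

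Within each site the members were compared with each other across libraries by Pearson's r of log2(TPM + 1). Over the 10 liver libraries the 21 pairs of members had r of 0.597 to 0.972, with a median of 0.856. Over the 6 fat pad libraries they had r of -0.679 to 0.880, with a median of 0.423. The points share their libraries, and those of the liver include the high libraries post_Liver 4, post_Liver 5 and pre_Liver 1, so these values are a description only. Over all 16 libraries the 8 genes outside the 7 with the pattern most like the mean of the members, among 13869 ranked, included Tnfrsf13c (r = 0.971), Spib (0.969), Cxcr5 (0.942), Fcrl1 (0.941), Ikzf3 (0.929), Fcmr (0.927) and Pla2g2d (0.927). Tnfrsf13c encodes the receptor for the survival factor BAFF, and Cxcr5 the receptor for the follicle chemokine CXCL13. With the group means taken out, the 8 genes included Tnfrsf13c (0.976), Spib (0.972), Fcmr (0.960), Lax1 (0.953), Irf4 (0.943), Samd11 (0.939) and Ppp1r16b (0.927).

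The position of each gene is that of the GENCODE annotation of GRCm38, in which all 7 are protein-coding. Cd79a lies at chr7:24897381-24902197 on the plus strand and Cd22 at chr7:30865402-30880342 on the minus strand. Cd79b lies at chr11:106311341-106314762, Ms4a1 at chr19:11249675-11266241, Pax5 at chr4:44524757-44710487, Blk at chr14:63372836-63417037 and Fcrla at chr1:170917576-170927583, each on the minus strand. Whether counting used strand is not given in the sources used here, so reads of Ms4a1, Cd22 and Pax5 cannot be told apart from those of annotated genes on the opposite strand at the same place (4930526L06Rik for Ms4a1, Gm29439 for Cd22). Pax5 also overlaps Mir5120, and Fcrla overlaps Gm2962, each on its own strand.

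The promoters of the members were searched on both strands for letters bound by B lineage factors. RefSeq promoters of build GRCm38.p6 matched 4 of 7 members (Cd79a, Cd22, Pax5 and Fcrla). The E box CAGGTG, bound by E2A, was found within 250 bases upstream of the start in 3 of these 4, against 17.2% of 32851 promoters of the same length. The EBF1 letters, TCCC and GGGA with 2 bases of any kind between them, were found in 1 of 4, against 0.779% of promoters. The octamer ATGCAAAT and the letters GAGGAAGT of PU.1 and SPIB were found in none of the 4, and in 1.6% and 2.44% of all promoters. In Cd22 the E box lies in the part of the window that holds an annotated exon, which is not printed, and it does not overlap the EBF1 letters. A match is a description of the sequence only. The 3 windows with a match outside annotated exons are printed here, each on the strand of its gene, with capitals marking CAGGTG in Cd79a (154 bases upstream of the RefSeq start) and Fcrla (69 bases upstream) and the EBF1 letters in Cd22 (49 bases upstream). They span chr7:24897247-24897380 on the plus strand for Cd79a, and on the minus strand chr1:170927584-170927833 for Fcrla and chr7:30879029-30879176 for Cd22. The Cd22 window lies inside the gene as annotated by GENCODE (chr7:30865402-30880342), so it is upstream of the RefSeq start but not of the GENCODE gene start.
Cd79a: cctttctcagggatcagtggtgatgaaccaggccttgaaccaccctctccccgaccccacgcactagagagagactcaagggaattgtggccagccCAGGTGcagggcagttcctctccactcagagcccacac
Fcrla: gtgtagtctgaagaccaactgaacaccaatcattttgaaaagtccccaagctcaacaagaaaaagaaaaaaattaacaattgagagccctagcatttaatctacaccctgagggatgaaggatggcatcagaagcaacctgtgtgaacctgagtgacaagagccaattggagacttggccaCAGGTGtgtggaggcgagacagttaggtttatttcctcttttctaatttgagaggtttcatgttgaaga
Cd22: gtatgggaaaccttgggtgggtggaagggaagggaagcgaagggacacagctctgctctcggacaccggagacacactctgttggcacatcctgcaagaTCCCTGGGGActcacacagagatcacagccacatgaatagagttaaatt

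In untreated mice, the members were compared between liver and fat pad tumors with limma on log2(TPM + 1). Of the 7 members 5 were called higher in pre_Liver than in pre_SC at an adjusted p under 0.05, beside 14.9% of 13648 genes tested, and 0 were called lower, beside 32.6%. With a further limit of more than 2-fold, 3 of 7 were called higher, beside 11.2% of genes. The median difference was 1.15 on the log2 scale over the 7 members and -0.51 over all genes. All 7 passed the filter of a mean of 1 TPM, Cd79b, Ms4a1, Pax5 and Blk only through the liver libraries. The liver and fat pad tables had been normalised separately, as FPKM and TPM, and were brought to TPM over the same genes. In the authors' table that holds both untreated groups, the added constant of each gene was estimated from these same TPM. With it removed, 5 of 7 members were called higher, but this match was built in and is no independent check. Without the filter on low values the same count, 5 of 7, was called higher, beside 12.6% of all genes.

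The 3 members called at more than 2-fold were the receptor chains and Ms4a1. Cd79a was higher in pre_Liver by 2.82 ± 0.56 log2 units, given with the SE (limma adjusted p = 0.00694), and Cd79b by 2.51 ± 0.44 (limma adjusted p = 0.0041). Ms4a1 was higher by 2.29 ± 0.48 (limma adjusted p = 0.00861). Their order depends on the pseudocount, and with 0.1 TPM the differences were 4.51 for Ms4a1, 3.67 for Cd79a and 3.37 for Cd79b. The differences of these 3 genes passed the test under each of the 20 limma alternatives. Fcrla was higher by 0.96 ± 0.30 (limma adjusted p = 0.0332). The kinase gene Blk was higher by 0.97 ± 0.34 (limma adjusted p = 0.0436). Both calls were lost when pre_SC 1, 2 or 3 or pre_Liver 3 was left out, and that of Blk also without pre_Liver 5. Without pre_Liver 1, Blk and Pax5 were below the filter. Cd22 differed by 0.94 ± 0.34 (limma adjusted p = 0.0504) and Pax5 by 1.15 ± 0.45 (limma adjusted p = 0.059), and neither passed the test. For each of the 7 members the groups did not overlap, beside 16.6% of all genes tested that did not overlap and were higher in pre_Liver. A two-sided exact permutation test gave p = 0.0357 for each member, which is the smallest value that 5 against 3 libraries allow.

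Hepatocyte and carcinoma genes moved with this comparison, with 12 of 12 hepatocyte genes called higher and 10 of 10 carcinoma genes called lower in pre_Liver. A scaling by the median of ratios moved the median of all genes to -0.01, and under it 7 of 7 members were called higher, beside 23% of genes. The libraries pre_Liver 4 and 5 stood apart in the authors' table of untreated tumors, which had been adjusted in the opposite direction for them. Without these 2 libraries 7 of 7 members were called higher, beside 14.2% of genes. Of 6 pan-leukocyte genes 0 were called in either direction, with a median difference of 0.35. The part of these other cells in the difference of the members was not tested.

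The other B lineage genes, a list of 24, were measured for comparison. Of 21 tested, 13 were higher and 2 lower in pre_Liver, beside 14.9% and 32.6% of all genes, with a median difference of 1.17 on the log2 scale. The number called in either direction was 15, and it was 6 to 8 when pre_SC 1, 2 or 3 or pre_Liver 3 was left out. Ralgps2, a guanine nucleotide exchange factor, was higher by 1.52 ± 0.19 (limma adjusted p = 0.000669), Vpreb3 by 1.75 ± 0.28, and Fcmr, the receptor for IgM, by 1.84 ± 0.30. Pou2af1, the B cell coactivator of octamer factors, was higher by 2.23 ± 0.39, and Spib, a transcription factor of B cells and plasmacytoid dendritic cells, by 1.59 ± 0.31. Fcrlb was lower, with a difference of -1.71 ± 0.31, and so was Ebf1, with -1.10 ± 0.30. Ebf1, the other lower gene of the list, drives B cell development and is also expressed in fat and stromal cells.

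Many signalling genes downstream of the receptor are shared with myeloid cells. Of 17 tested, 2 were higher and 3 lower in pre_Liver, beside 14.9% and 32.6% of all genes, with a median of 0.14. Pik3ap1, the adaptor BCAP, was higher by 1.53 ± 0.20 and Rasgrp3 by 1.39 ± 0.21, while Plcg2, the phospholipase that SYK and BTK activate, was lower, with a difference of -2.42 ± 0.70. Of 8 inhibitors of receptor signalling 0 were higher and 1 was lower, beside the same shares of all genes. The lower gene was that of the ubiquitin ligase Cblb (-1.14 ± 0.30). Of 7 tested ligands and chemokines that act on B cells 3 were higher and 1 lower, beside the same shares. Ccl19 was higher by 3.41 ± 0.56, Cxcl12 by 3.0 ± 0.55 and Cxcl13 by 1.95 ± 0.67, while Tnfsf13, which encodes APRIL, was lower, with a difference of -1.24 ± 0.36. These 4 are chemokines and a survival factor, and which cells made them here was not tested. Without pre_SC 1, 2 or 3 or pre_Liver 3, 2 of the signalling genes and 2 of the ligands were called. Cblb was not called without pre_SC 1 or pre_SC 3.

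Genes of other host cells were read beside the members. Of 11 T cell genes tested 1 was higher, Cd4 (0.96 ± 0.25), beside 14.9% of all genes, and the list had a median difference of 0.89. Its summed level was 76.0 to 290.4 TPM in pre_Liver, against 66.0 to 90.1 TPM in pre_SC. Siglech, a marker of plasmacytoid dendritic cells, stood at 2.22 to 7.35 TPM in pre_Liver, against 1.22 to 4.04 TPM in pre_SC. These cells express some B lineage genes, and of the 9 genes on their list 1 was higher and 2 were lower, beside 14.9% and 32.6% of all genes. The part of either cell type in the result was not tested.

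**Figure D3:**
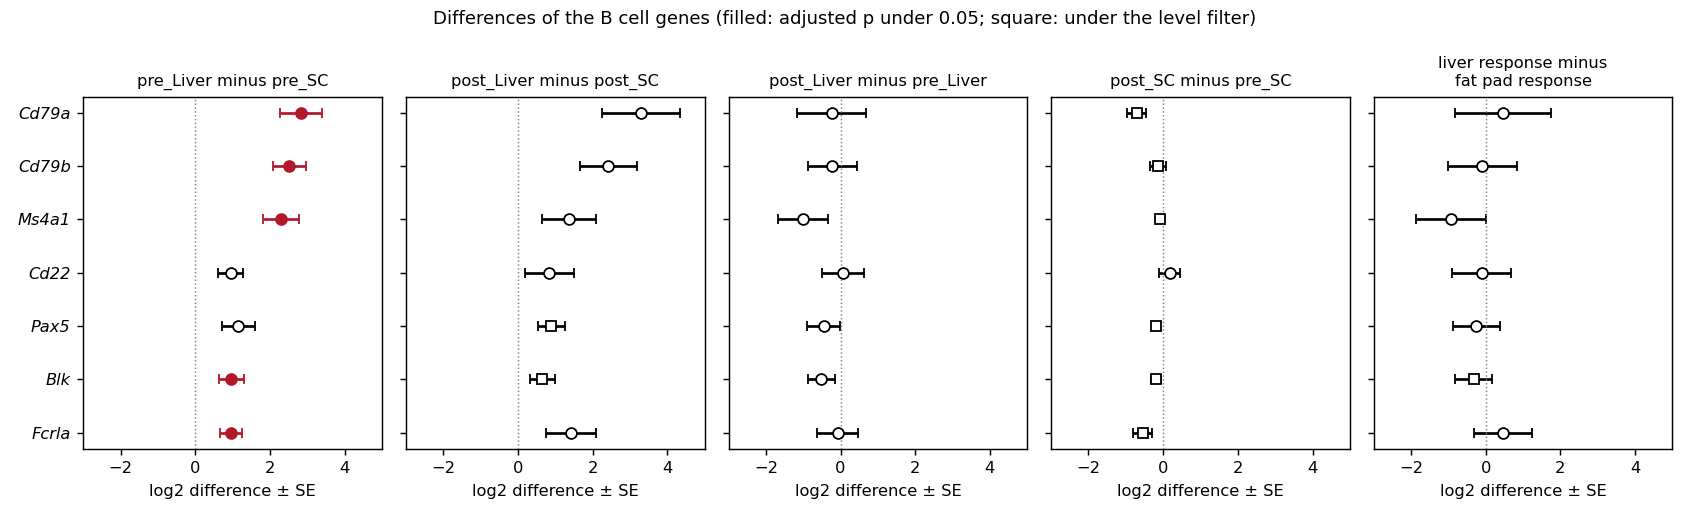
Log2 differences of the 7 members with their SE on the horizontal axis, in the comparisons between sites and between treatments, from limma on log2(TPM + 1), with filled points for called members and squares for members below the filter on low values. In untreated tumors Cd79a, Cd79b and Ms4a1 lie farthest from 0, at 2.82, 2.51 and 2.29, and in the liver response the SE of the 7 members is 0.37 to 0.92.

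In treated mice, 5 of the 7 members passed the filter and 0 were called between post_Liver and post_SC, beside 9.41% of 13952 genes tested in either direction. Cd79a, Cd79b, Ms4a1 and Fcrla passed only through the liver libraries, with post_SC means of 0.242, 0.712, 0.0315 and 0.625 TPM. Without the filter all 7 were tested and 0 were called, beside 8.11% of genes. At an unadjusted p under 0.05, 2 of the 5 passed, beside 28.4% of genes. Here too the values come from tables that were normalised separately. Cd79a differed by 3.29 ± 1.05 on the log2 scale (limma adjusted p = 0.0841) and Cd79b by 2.42 ± 0.75 (limma adjusted p = 0.0774). In untreated mice the values were 2.82 ± 0.56 and 2.51 ± 0.44, so the SE was wider after paclitaxel. Fcrla differed by 1.43 ± 0.67, Ms4a1 by 1.36 ± 0.73 and Cd22 by 0.83 ± 0.65 (limma adjusted p = 0.195, 0.244 and 0.411). Of the 5 members that passed the filter 3 did not overlap, Cd79a, Cd79b and Ms4a1, beside 14.1% of tested genes that did not overlap and were higher in post_Liver. Without the filter Pax5 did not overlap either, or 4 of 7 members, beside 2308 of 17428 genes that did not overlap and were higher. Those 4 had p = 0.0357 in a two-sided exact permutation test, and Blk and Fcrla had p = 0.0714. Cd22 had p = 0.357 in the same exact permutation test. With a pseudocount of 0.1 in place of 1 TPM, Cd79a (5.23, limma adjusted p = 0.028) and Cd79b (3.41, limma adjusted p = 0.0426) were called, beside 7.88% of genes called higher. Without post_Liver 3, Cd79b was called (2.75, limma adjusted p = 0.0451). When each library was centred on its pan-leukocyte genes, a setting chosen after the data had been seen, 0 of the 5 members were called. Their median was then -0.011, against 1.43 without centring, and that of all genes -1.51, against -0.075. Under centring Cd22 (-0.60), Ms4a1 (-0.075) and Fcrla (-0.011) turned below 0.

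Of 19 tested on the list of other B lineage genes 6 were higher in post_Liver and 0 lower, with a median of 1.29. Over all genes tested, 9.41% were called in either direction. Cd37 was higher by 2.27 ± 0.23, Ly6d by 3.34 ± 0.59, Cd180 by 2.04 ± 0.45, Cd72 by 1.71 ± 0.41, Ralgps2 by 0.78 ± 0.19 and Fcrl1 by 1.38 ± 0.35. Of these, Cd37 and Cd180 are also expressed by myeloid cells. Ly6d and Cd72 did not follow the members across libraries. Ly6d was highest in post_Liver 2, at 779 TPM, and lowest of its group in post_Liver 4, at 124 TPM, while the members summed to 9.88 TPM in post_Liver 2 and 145 TPM in post_Liver 4. Cd72 stood at 25.1 TPM in post_Liver 4 and at 52.5 to 78.8 TPM in the other post_Liver libraries. Of 17 signalling genes 6 were higher, among them Syk (1.60 ± 0.32), Blnk (1.77 ± 0.35) and Btk (1.45 ± 0.36), and of 8 inhibitors 3 were higher, Ptpn6 (1.32 ± 0.25), Pirb (1.52 ± 0.30) and Siglecg (1.88 ± 0.37). Syk, Btk, Ptpn6 and Pirb are expressed in neutrophils and macrophages too. Beside them, 7 of 8 neutrophil genes were higher, with a median of 5.34, and 4 of 6 pan-leukocyte genes, with a median of 1.52. All 12 hepatocyte genes were higher too, with a median of 9.19. The part of myeloid cells or hepatocytes in these calls was not tested. Without post_SC 1 or post_SC 3, 1 of the other B lineage genes, 0 of the signalling genes and 1 of the inhibitors were called. Without post_SC 2, post_Liver 1 or post_Liver 5, 3 of the other B lineage genes were called. Centred on the pan-leukocyte genes, Fcrl1, Ralgps2 and Ptpn6 turned to -0.060, -0.65 and -0.12, none of them called.

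Between liver tumors with and without paclitaxel no member passed the test. All 7 members were tested between post_Liver and pre_Liver, 0 were called in either direction, beside 3.18% of 13727 genes, and 0 had an unadjusted p under 0.05, beside 31.8%. Ms4a1 differed by -1.01 ± 0.68 on the log2 scale (limma adjusted p = 0.279), Blk by -0.51 ± 0.37 (0.305) and Pax5 by -0.45 ± 0.45 (0.444). Cd79a differed by -0.24 ± 0.92 (limma adjusted p = 0.844), Cd79b by -0.22 ± 0.67 (0.803), Fcrla by -0.08 ± 0.54 (0.918) and Cd22 by 0.07 ± 0.55 (0.931). The median was -0.24 over the members and 0.39 over all genes. The groups overlapped for all 7 members, beside 6.52% of genes whose groups did not overlap, and two-sided exact permutation tests gave p of 0.214 to 0.921. The post_Liver libraries were on both sides of pre_Liver: post_Liver 4 was above every pre_Liver library for Cd79a, Cd79b and Fcrla, while post_Liver 1, 2 and 3 were below every pre_Liver library for Cd79a, Ms4a1, Blk and Fcrla. The SE of 0.37 to 0.92 limits what could be detected here, and the absence of a call does not show that a member did not change.

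The same libraries were set against the leukocyte content. The summed level of the 6 pan-leukocyte genes was 1001 to 1671 TPM in post_Liver and 410.4 to 1230.1 TPM in pre_Liver, and the 8 neutrophil genes were all called higher in post_Liver, with a median of 4.13. Of 12 hepatocyte genes 0 were called, with a median of -2.18. When each library was centred on its pan-leukocyte genes, a setting chosen after the data had been seen, 3 members were called lower in post_Liver, beside 15.7% of genes called lower. These were Ms4a1 (-1.93, limma adjusted p = 0.0258), Pax5 (-1.38, limma adjusted p = 0.0263) and Blk (-1.44, limma adjusted p = 0.0202). Of the other B lineage genes 1 of 20 tested was higher in post_Liver, Ly6d (2.65 ± 0.61), of the signalling genes 1 of 17, Dapp1 (1.40 ± 0.33), and of the inhibitors 1 of 8, Pirb (1.15 ± 0.26). Over all genes tested, 3.18% were called in either direction. Each of these 3 lists had 0 calls when post_Liver 1, 2, 3 or 5 or pre_Liver 3, 4 or 5 was left out. Without pre_Liver 2 the numbers called were 5, 9 and 4, and without post_Liver 4 they were 2 for each list.

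**Figure D4:**
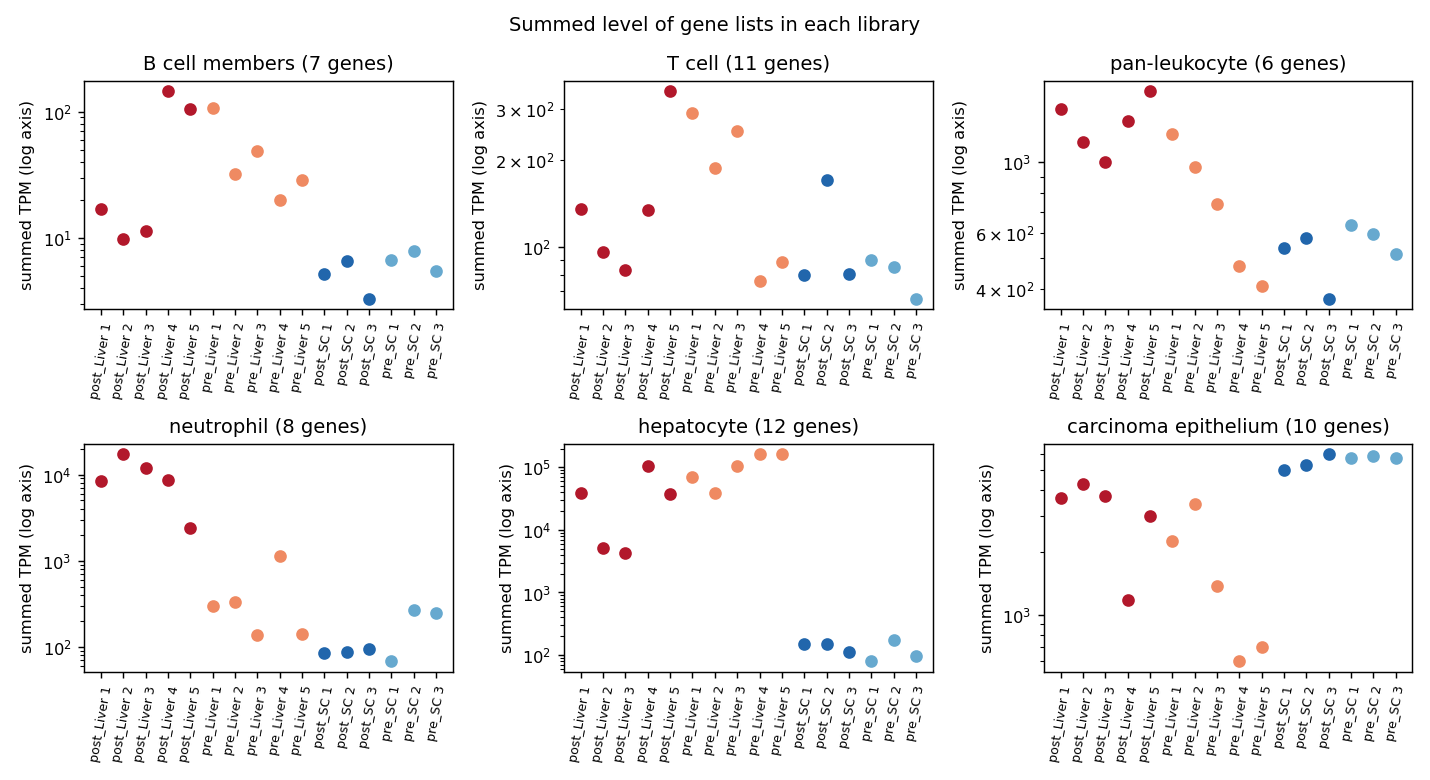
Summed TPM of marker lists in each library, on a log axis, with 1 point for each of the 16 libraries. The B cell sum is 145 TPM in post_Liver 4, 104 TPM in post_Liver 5 and 9.88 to 16.8 TPM in the other post_Liver libraries, an order that the neutrophil sum of 2418 to 17262 TPM does not follow. In post_Liver 1 to 5 the hepatocyte sum is 39558.5, 5073, 4316, 104625 and 37575 TPM, and the carcinoma sum 3662, 4257, 3765, 1183 and 2995 TPM. The part of these tissues in the split of the B cell sum was not tested.

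Of the plasma cell list, Jchain, Mzb1, Tnfrsf17, Prdm1, Irf4, Derl3 and Txndc5 were higher in post_Liver 4 and 5 than in post_Liver 1, 2 and 3. Eaf2 was so by a small margin, at 27.3 and 27.4 TPM against 25.3 TPM in post_Liver 2. Xbp1 and Sdc1 were not. Xbp1 stood at 301 TPM in post_Liver 5 and 453 TPM in post_Liver 2, and Sdc1 at 184 TPM in post_Liver 4 and 230 TPM in post_Liver 1. Jchain, which joins IgA and IgM into polymers, stood at 41.5, 12.5, 5.10, 2592 and 1355 TPM in post_Liver 1 to 5, and at 197, 43.9, 49.0, 87.6 and 41.1 TPM in pre_Liver 1 to 5. Mzb1, a chaperone of antibody assembly, stood at 4.66, 4.60, 1.28, 377 and 169 TPM in post_Liver 1 to 5, and at 36.9, 6.83, 9.14, 14.3 and 11.7 TPM in pre_Liver 1 to 5. In both genes post_Liver 4 and 5 were above all pre_Liver libraries. In post_Liver 1, 2 and 3 Mzb1 was below all of them, and Jchain was below all of them in post_Liver 2 and 3. Tnfrsf17, which encodes the plasma cell receptor BCMA, stood at 0.0784, 0.477, 0, 11.7 and 5.38 TPM in post_Liver 1 to 5, and at 0.497 TPM or less in every pre_Liver library. The ratio of Jchain to Cd79a was 1.25 to 33.4 in post_Liver and 2.52 to 15.2 in pre_Liver. Of 10 plasma cell genes tested in the liver response 0 were called, and Jchain differed by 0.58 ± 1.58 (limma adjusted p = 0.782). None of the 12 immunoglobulin chain genes on the list matched a row, and they were not analysed here.

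In untreated tumors, 4 of 9 plasma cell genes tested were higher in pre_Liver than in pre_SC and 2 lower, beside 14.9% and 32.6% of all genes. Jchain was higher by 2.74 ± 0.54 (limma adjusted p = 0.00684), Mzb1 by 2.61 ± 0.46 (limma adjusted p = 0.00402) and Derl3 by 2.25 ± 0.52. The genes that were lower, Sdc1 (-1.62 ± 0.19) and Prdm1 (-1.79 ± 0.32), are also expressed by epithelial cells. Sdc1 stood at 137 to 219 TPM in pre_Liver, against 494 to 596 TPM in pre_SC.

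In fat pad tumors, Cd22 was the only member that passed the filter, and it differed by 0.17 ± 0.29 between post_SC and pre_SC (limma adjusted p = 0.726), beside 7.05% of 13339 genes called. Without the filter 0 of 7 members were called, beside 3.75% of genes, and the differences were -0.71 ± 0.26 for Cd79a and -0.54 ± 0.26 for Fcrla (limma adjusted p = 0.165 and 0.252). The other members differed by -0.20 to -0.08. Only Pax5 did not overlap between the groups, with all post_SC libraries at or under 0.0767 TPM and all pre_SC libraries at or above 0.140 TPM. Pax5 was below the filter, and without the filter 2839 of 17428 genes did not overlap and were lower in post_SC. A two-sided exact permutation test of 3 against 3 libraries cannot go below p = 0.1, which was the value of Pax5. The fat pad values of Pax5 are all at or under 0.328 TPM, with 1 library listed at 0.

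Jchain was lower in treated than in untreated fat pad tumors, and it passed the filter only through pre_SC. It stood at 0.357, 0.701 and 0.422 TPM in post_SC 1 to 3, and at 5.13, 14.3 and 11.3 TPM in pre_SC 1 to 3. The groups did not overlap, and the difference was -2.82 ± 0.35 on the log2 scale (limma adjusted p = 0.0114). Without pre_SC 3 it was -2.70 and missed the threshold (limma adjusted p = 0.051), and no plasma cell gene was called. Mzb1 stood at 0.620, 1.21 and 0.307 TPM in post_SC 1 to 3, and at 1.23, 1.46 and 1.30 TPM in pre_SC 1 to 3. Of 7 plasma cell genes tested 1 was lower in post_SC, Jchain, and 1 was higher, Eaf2 (0.87 ± 0.17), an elongation factor partner that other cells express as well. Of the 12 tested on the list of other B lineage genes 1 was higher, Ralgps2 (0.97 ± 0.21), and of the 17 signalling genes 0 were called. Over all genes tested, 7.05% were called in either direction. The call of Ralgps2 was lost when any 1 of the 6 libraries was left out (limma adjusted p of 0.0626 to 0.145), and that of Eaf2 without pre_SC 1, 2 or 3 or post_SC 1.

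The difference between the responses of the sites was tested as the interaction of site and treatment in 1 limma fit of the 4 groups. Of the 6 members tested 0 were called, beside 2.98% of 13875 genes, and 0 had an unadjusted p under 0.05, beside 25.1%. Ms4a1 differed by -0.93 ± 0.93 (limma adjusted p = 0.519) and Cd79a by 0.47 ± 1.29 (limma adjusted p = 0.826). The other members tested lay between -0.26 and 0.47, each with an SE of 0.63 to 0.93. Jchain differed by 3.40 ± 2.20 (limma adjusted p = 0.322), so its difference in the fat pad and that in the liver were not shown to differ.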

How the data were processed

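Poly(A) RNA sequencing of 16 tumor suspensions was analysed from tables that the authors deposited. The tools fastp and StringTie are listed in the submitters' processing notes beside GRCm38 (mm10), with no roles or versions. No table names its unit, so units were read from the values. The liver table as deposited by the authors holds FPKM, with column sums of 511645 to 547765. The fat pad table as deposited by the authors holds TPM, each column summing to 1000000. The untreated table as deposited by the authors holds a score, TPM plus or minus a constant per gene, with 2382 genes below 0, and served only as an alternative.

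TPM were recomputed over the 17428 genes shared by the liver and fat pad tables. Gene names altered by R were restored, 24 names turned into dates were left out of the fat pad table, and 1 name on several rows was left out. Genes with a mean of at least 1 TPM over the libraries of a comparison were tested as log2(TPM + 1), which makes differences of weakly expressed genes appear smaller. limma 3.58.1 in R 4.3.3 (lmFit, eBayes with a trend) gave p-values, adjusted by Benjamini-Hochberg over all genes tested and called under 0.05. The design had expected a usable untreated table, and the FPKM and TPM tables replaced it. The scripts were tested on simulated data. Exact permutation tests and plots used Python 3.11.15, SciPy 1.17.1, pandas 2.3.3, NumPy 2.4.6 and matplotlib 3.10.9.

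The members and gene lists were chosen with earlier results of these data known. All 7 members are named in every comparison. Of other lists, counts are given with values for up to 6 genes in order of p, and of genes with the most similar pattern the first 8. Of those 8, 1 is not reported here. Outside this rule, with their values seen, Ebf1 was named in untreated tumors and every plasma cell gene in liver tumors. So were Mzb1 in fat pad tumors, and Ptprc, Cd3e and Siglech for their levels. Alternatives changed the pseudocount, filter, scaling, variance model, replicate block, table and libraries. Depth cannot be recovered from FPKM or TPM, so no counting intervals are given.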

Additional observations from a re-analysis of the deposited data

Results flagged for a closer look

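In the library pre_Liver 1, 3 members stood far from the other 4 libraries of its group. Cd79b was at 25.1 TPM in pre_Liver 1, against 4.67 to 10.1 TPM in pre_Liver 2 to 5. Cd22 was at 12.2 TPM in pre_Liver 1, against 3.78 to 6.01 TPM in the other 4, and Fcrla was at 6.65 TPM, against 2.41 to 3.35 TPM. In each of the 3 genes the gap to the next library, in TPM, was a larger part of the group's whole range than Dixon's critical value for 5 samples allows. The gap was not examined as log2(TPM + 1), the scale of the limma fits, which draws high values closer together. Of 14 gene and group pairs examined 3 were marked in this way, where for 1 pair alone chance marks about 1 in 20 if the values follow a normal distribution. Whether the TPM do so was not tested. The 3 are all of pre_Liver 1, in genes with r of 0.856 to 0.972 with each other across the liver libraries. They are therefore not independent, and an excess over chance was not tested. The T cell gene Cd3e was also highest of its group in pre_Liver 1, at 35.2 TPM, against 6.35 to 25.9 TPM in pre_Liver 2 to 5. Without pre_Liver 1, 4 members were called higher in untreated liver than in untreated fat pad tumors, of 5 that passed the filter.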

How the results depend on the processing

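In untreated tumors Cd79a, Cd79b and Ms4a1 were called higher in the liver under all 20 limma alternatives, with log2 differences of 2.44 to 3.67, 2.18 to 3.37 and 1.93 to 4.51. The number of members called was 3 to 7 with 1 library left out, and 3 without pre_SC 1, 2 or 3, without pre_Liver 3, or when more than 2-fold was also required. In treated tumors 0 were called between the sites in the fit reported, 2 with a pseudocount of 0.1, 1 with post_Liver 2 and 3 counted as 1 library (added after the data had been seen; Cd79b, 2.74, limma adjusted p = 0.0481), and 0 to 1 with 1 library left out. In the liver response 3 were called lower after centring on pan-leukocyte genes, also added after the data had been seen, and 0 under the other alternatives run. Centring also turned the sign in treated tumors of the members Cd22 (-0.60), Ms4a1 (-0.075) and Fcrla (-0.011), none of them called with or without it, and of Fcrl1 (-0.060), Ralgps2 (-0.65), Vav1 (-0.32), Pik3cd (-0.061), Ptpn6 (-0.12) and Xbp1 (-0.074). The cause of these changes was not tested.

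Not every pair of same-numbered libraries deviated together (r of -0.124 to 0.738 in the liver and -0.153 to 0.131 in the fat pad), and not every library resembled its own number most. In the liver post_Liver 2 and 4 did resemble pre_Liver 2 and 4 most (r = 0.653 and 0.738). Whether the numbers mark pairs cannot be told from this, and the fits reported did not use them as pairs. Between the sites, the fit with the replicate block also leaves out liver libraries 4 and 5, which have no partner. With it 1 member was called between treated sites (Cd79a, 1.77, limma adjusted p = 0.033) and 1 in the difference between responses (Ms4a1, -2.35, limma adjusted p = 0.0451). The same libraries without the block, a setting added after the data had been seen, gave the same differences, with 2 members called between treated sites (Cd79a, limma adjusted p = 0.0113, and Cd79b, 1.38, limma adjusted p = 0.0443) and 1 in the difference between responses (Ms4a1, limma adjusted p = 0.0426). Between untreated sites 6 were called with the block and 7 in the same libraries without it, the difference being Blk (1.17, limma adjusted p = 0.05002 with the block). Over all genes, the number called with 1 library left out was 107 to 3999 in the liver response, 77 to 772 in the fat pad response, 2134 to 9341 between untreated sites, 412 to 1527 between treated sites and 92 to 2599 in the interaction. The other alternatives, apart from leaving out both pre_Liver 4 and 5, gave 156 to 3071, 274 to 1012, 3587 to 8134, 954 to 11686 and 260 to 1658 for the same comparisons, beside 436, 940, 6475, 1313 and 413 as reported. Without both pre_Liver 4 and 5, 81 genes were called in the liver response and 4686 between untreated sites. Between untreated sites 2032 of 6475 calls were higher in the liver, and 3162 of 5620 under the median of ratios.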
